A study of Rattus norvegicus with 9 samples.

Results

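The subunits of the oxidative phosphorylation system that are encoded in the nucleus were measured in rat liver. Members were taken by gene symbol, as array rows that carried exactly 1 symbol beginning with Nduf, Uqcr, Atp5 or Cox4 to Cox8, or equal to Sdha, Sdhb, Sdhc, Sdhd, Cyc1 or Cycs, and that belonged to a protein-coding gene. Where a gene had more than 1 row, the row with the highest mean over the 9 arrays stood for it. This gave 98 genes among 68842 transcript clusters tested, of which 20522 belonged to 1 protein-coding gene each. Complex I had 39 members, complex II 4, complex III 11, cytochrome c 1, complex IV 18 and complex V 18, and another 7 were complex I assembly factors whose symbols begin with Ndufaf. Among the 98 were 11 predicted copies of other genes of these complexes and 6 isoforms used mainly in tissues other than liver. They are given apart below, and 81 members remained without them. Ndufa13, Ndufaf3, Cox6b1, Cox6b2, Cox7a1, Cox7c, Atp5f1c and Atp5me had no row of their own symbol alone and were not analysed here.

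The study examined whether gamma conglutin (Cγ), a lupin seed protein, given with lupanine, a lupin alkaloid, alters gene expression in the liver of diabetic rats. The animals were male Wistar rats, 6 to 8 weeks old when obtained. In the T2D treated group, diabetes was induced with a high-fat diet and a single low dose of streptozotocin, and 28 mg/kg Cγ plus 20 mg/kg lupanine in saline were then given by oral gavage every day for 7 days. The T2D control group had the same induction and, by the study's methods, the saline vehicle by the same daily gavage. The healthy control group had no induction and the same vehicle gavage. The labels give the treatment of both control groups as none. Each group had 3 arrays, and each array read a pool of liver RNA from 3 rats (pools 1 to 3 T2D treated, 4 to 6 T2D control, 7 to 9 healthy control). The sources call the pools both biological and technical replicates, and by the methods the arrays of a group derive from 9 rats. The p-values below measure the spread between pools of 3 rats, or, if the pools were technical replicates, only that of the array procedure. T2D livers were lysed in Trizol and healthy livers in Buffer RLT, so that diet, streptozotocin and lysis reagent cannot be told apart in any comparison with healthy livers. The study's methods give the RNeasy Mini Kit for liver RNA and name no Trizol.

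Oxidative phosphorylation takes place in the inner mitochondrial membrane. Complex I (NADH:ubiquinone oxidoreductase) and complex II (succinate dehydrogenase) pass electrons to ubiquinone, complex III passes them to cytochrome c and complex IV passes them to oxygen. Complexes I, III and IV pump protons, and complex V (ATP synthase) uses the proton gradient to make ATP. A few hydrophobic subunits of complexes I, III, IV and V are encoded by mitochondrial DNA, whereas the genes described here are transcribed in the nucleus, and complex II is wholly nuclear-encoded. In hepatocytes the chain supplies ATP for gluconeogenesis and urea synthesis and reoxidises the NADH and FADH2 that come from fatty acid oxidation.

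Values are log2 signals per transcript cluster. The median signal of an array averaged 3.08 in T2D treated, 3.09 in T2D control and 3.21 in healthy control pools, and the array's background probes averaged 2.89, 2.82 and 3.52 in the same order. Mean signals under 5 were found for 21 members in T2D treated, 20 in T2D control and 15 in healthy control livers. The pools were close to each other, with a median SD over members of 0.0591 in T2D treated, 0.0950 in T2D control and 0.122 in healthy control livers. Within its group, T2D control pool 4 was the lowest for 78 of 98 members, and among the healthy control pools, pool 8 was the highest for 71 and pool 9 the lowest for 59.

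T2D control livers gave lower signals than healthy livers for the larger part of these genes. With limma and an adjusted p under 0.05, 55 of 98 members were lower and 6 were higher, while 37 did not pass. Over all clusters 22.6% were lower and 12.4% higher by the same test (35% in either direction), and among clusters of 1 protein-coding gene with a mean signal of at least 5 the shares were 24.2% lower and 31.7% higher. The median difference over members was -0.36, against -0.12 over all clusters and 0.04 over those brighter protein-coding clusters. All 3 T2D control pools lay below all 3 healthy pools for 62 members, where 32.7% of all clusters did so, and above them for 8, where 15% did so. With array medians set equal, 47 members were lower and 8 higher, with 8349 lower and 11275 higher over all clusters against 15527 and 8556 as deposited. After quantile normalization 63 members were lower and 2 higher, with 11256 lower and 9432 higher over all clusters. In whole liver, fewer cells of a type and less RNA per cell cannot be told apart.

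**Figure D1:**
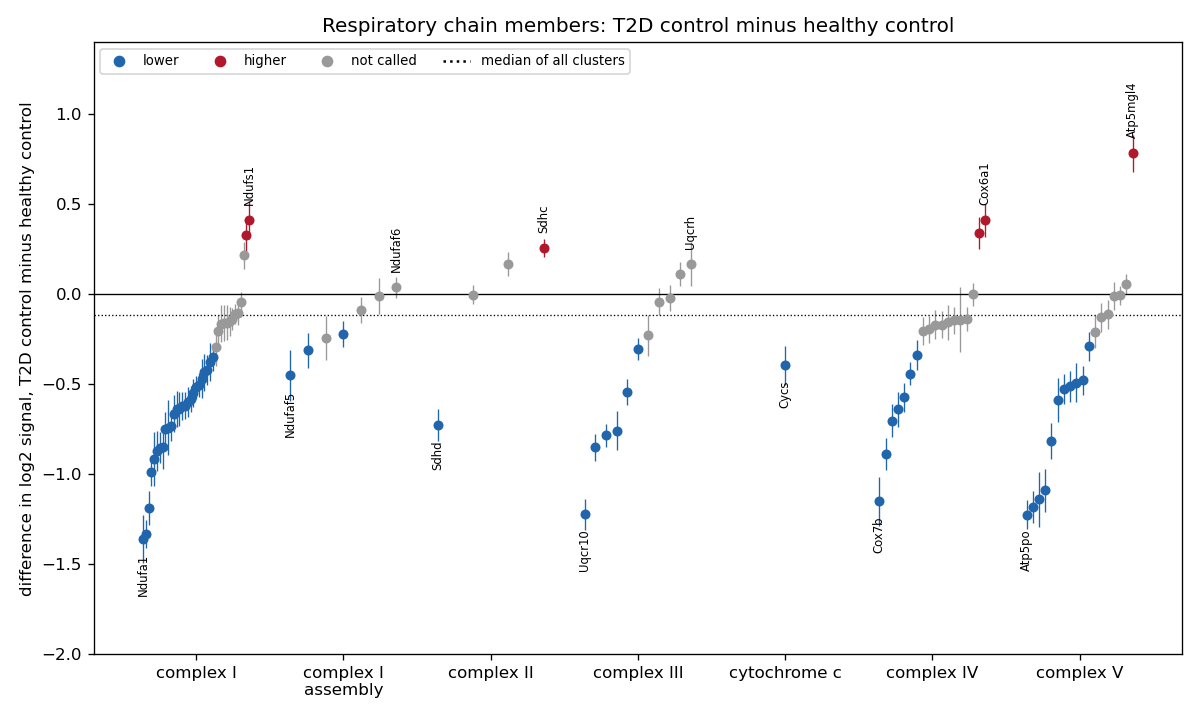
Difference in log2 signal, T2D control minus healthy control (y axis), of each of the 98 members by complex (x axis), with bars of 1 SE. Blue dots are lower and red dots higher at an adjusted p under 0.05, grey dots did not pass, and the dotted line is the median of all clusters (-0.12). Complexes I and V hold most of the large negative differences, and complex II has 1 lower and 1 higher member.

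The complexes differed in their medians. Complex I had a median difference of -0.52, with 26 of 39 members lower and 2 higher, and complex V had -0.48, with 11 of 18 lower and 1 higher. Complex III had -0.30, with 6 of 11 lower and 0 higher, and complex IV had -0.18, with 7 of 18 lower and 2 higher. Complex II had 0.08, with 1 of its 4 members lower and 1 higher, and its median was 0.20 with array medians set equal and -0.09 after quantile normalization. Complex IV had -0.07 with array medians set equal and -0.36 after quantile normalization. Without copies and isoforms of other tissues, 48 of 81 members were lower and 5 higher with a median of -0.40, and complex IV then had 5 of 10 lower, 2 higher and a median of -0.27. Since the background probes were brighter in healthy livers, dim members were also left out: with a mean signal of at least 5, the medians were -0.47 for complex I, -0.30 for complex III, -0.34 for complex IV and -0.49 for complex V. At the threshold that the study used, more than a 2-fold difference at an unadjusted p under 0.05, 9 members were lower and 0 higher, beside 0.784% and 3.35% of all clusters.

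Among the catalytic core subunits of complex I, most of which carry the flavin or iron-sulfur clusters that lead electrons to ubiquinone, 4 of 6 measured were lower. Ndufv2, which holds an iron-sulfur cluster beside the NADH site, had log2 signals of 7.75, 8.03 and 8.03 in T2D control pools, against 8.66, 8.74 and 8.59 in healthy pools. The groups did not overlap, and the T2D control mean fell by 0.73 (SE 0.087, adjusted p = 0.00072 with limma). Ndufs3 fell by 0.64 (SE 0.098, adjusted p = 0.00216) and Ndufs8, an iron-sulfur subunit near the ubiquinone site, by 0.58 (SE 0.0723, adjusted p = 0.000864). Ndufv1, which binds NADH and the flavin, fell by 0.35 (SE 0.074, adjusted p = 0.00834). Ndufs7, the other iron-sulfur subunit at the ubiquinone site, had a difference of -0.10 (adjusted p = 0.25) and its pools overlapped. Ndufs1, the largest core subunit, went the other way, with 7.73, 7.91 and 7.97 in T2D control pools against 7.47, 7.25 and 7.65 in healthy pools. Its difference was 0.41 (SE 0.105, adjusted p = 0.0176). It did not pass without T2D control pool 5 (adjusted p = 0.061), without pool 6 (0.064), in a fit of the 2 groups alone (0.0579) or after quantile normalization (0.0628).

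The accessory subunits of complex I, which surround the core and are needed for its assembly or stability, held the largest differences. Of 29 measured, 20 were lower and 1 was higher, with a median of -0.52. Ndufs5 had signals of 3.48, 3.64 and 3.50 in T2D control pools, against 4.94, 4.94 and 4.73 in healthy pools. Ndufa1, a small subunit of the membrane arm, had 5.93, 6.29 and 6.02 in T2D control pools, against 7.26, 7.72 and 7.34 in healthy pools. Ndufb1, also of the membrane arm, had 5.56, 5.63 and 5.61 in T2D control pools, against 6.63, 7.02 and 6.70 in healthy pools. In each of these the gap between the groups was wider than the range within either group. Ndufa1 was 2.56-fold lower (log2 difference -1.36, SE 0.133, adjusted p = 0.000299), Ndufs5 2.52-fold (-1.33, SE 0.0784, adjusted p = 3.94e-05) and Ndufb1 2.28-fold (-1.19, SE 0.0957, adjusted p = 0.000129). Ndufs5 was dim, with mean signals of 3.54 in T2D control and 4.87 in healthy livers, beside background probe means of 2.82 and 3.52. The part of the background in its difference was not tested. Ndufa6 fell by 0.99 (SE 0.0747, adjusted p = 0.000101), Ndufa2 by 0.92 and Ndufa7 by 0.87. Ndufab1, the mitochondrial acyl carrier protein, fell by 0.55, and Ndufa9 by 0.52. Ndufs4, which lies near the flavin end of the matrix arm, had a difference of -0.04 (adjusted p = 0.568), and Ndufa10 of -0.11 (adjusted p = 0.142). Ndufa3 was the accessory subunit that rose, by 0.33 (SE 0.097, adjusted p = 0.0313).

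Complex I is put together in steps with the help of assembly factors that are not part of the finished enzyme. Of the 7 Ndufaf factors measured, 3 were lower, with a median of -0.22. Ndufaf5, which hydroxylates Ndufs7 during assembly, had 4.46, 4.65 and 4.65 in T2D control pools against 4.95, 5.38 and 4.78 in healthy pools, so that the groups lay close together without overlapping. It fell by 0.45 (SE 0.141, adjusted p = 0.0377), Ndufaf1 by 0.31 (SE 0.0991, adjusted p = 0.0402) and Ndufaf2 by 0.22 (SE 0.0715, adjusted p = 0.0424). These 3 calls were close to the threshold. Ndufaf2 was also dim, with mean signals of 3.32 in T2D control and 3.54 in healthy livers, beside background probe means of 2.82 and 3.52. None of the 3 passed with array medians set equal (adjusted p = 0.0733, 0.127 and 0.287 in that order), in a fit of the 2 groups alone (0.0932, 0.0862 and 0.0998) or without T2D control pool 4 (0.115, 0.124 and 0.0785). Ndufaf4 (-0.01, adjusted p = 0.936) and Ndufaf6 (0.04, adjusted p = 0.622) showed no difference beyond the spread of the pools.

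The 4 subunits of succinate dehydrogenase, which also belongs to the citric acid cycle, did not move together. Sdhd and Sdhc anchor the enzyme in the membrane as a pair. Sdhd had 7.32, 7.52 and 7.56 in T2D control pools against 8.10, 8.32 and 8.17 in healthy pools, while Sdhc had 7.87, 7.97 and 7.97 in T2D control pools against 7.72, 7.65 and 7.68 in healthy pools. Sdhd therefore lay below the healthy pools in every T2D control pool and Sdhc above them. Sdhd fell by 0.73 (SE 0.0899, adjusted p = 0.000844), and Sdhc rose by 0.26 (SE 0.052, adjusted p = 0.00701), although after quantile normalization the difference of Sdhc was 0.10 (adjusted p = 0.227). Sdhb, the iron-sulfur subunit, had 6.98, 7.04 and 7.06 in T2D control pools against 7.09, 7.03 and 6.96 in healthy pools, which overlapped (adjusted p = 0.989). Sdha, the flavoprotein that oxidises succinate, had 8.32, 8.31 and 8.34 in T2D control pools against 8.22, 8.02 and 8.24 in healthy pools. Its difference of 0.17 did not pass (adjusted p = 0.0839), but did with array medians set equal (0.28, adjusted p = 0.0365) and without healthy pool 9 (0.21, adjusted p = 0.0388).

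In complex III several small subunits and the Rieske protein were lower. Uqcr10, a small subunit of the membrane part, had 7.16, 7.47 and 7.39 in T2D control pools against 8.55, 8.58 and 8.55 in healthy pools, with no overlap. It was 2.33-fold lower (-1.22, SE 0.0851, adjusted p = 7.45e-05). Uqcrb, at the ubiquinone side, fell by 0.78 (SE 0.0627, adjusted p = 0.000125) and Uqcrq by 0.76 (SE 0.106, adjusted p = 0.00146). Uqcrfs1, the Rieske iron-sulfur protein, had 5.49, 5.59 and 5.59 in T2D control pools against 6.04, 6.21 and 6.05 in healthy pools, and fell by 0.54 (SE 0.0707, adjusted p = 0.00107). The 2 core proteins on the matrix side differed from each other. Uqcrc2 had 8.05, 8.20 and 8.23 in T2D control pools against 8.47, 8.44 and 8.48 in healthy pools, and fell by 0.30 (SE 0.0608, adjusted p = 0.00674; adjusted p = 0.0907 with array medians set equal). Uqcrc1 had 7.40, 7.54 and 7.55 in T2D control pools against 7.44, 7.31 and 7.42 in healthy pools, a difference of 0.11 (adjusted p = 0.199). Cyc1, which hands electrons to cytochrome c, differed by -0.02 (adjusted p = 0.821). Uqcrh, the hinge protein, had a difference of 0.17 (adjusted p = 0.299).

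Cytochrome c itself, encoded by Cycs, had 7.36, 7.83 and 7.60 in T2D control pools against 7.94, 8.00 and 8.04 in healthy pools. It fell by 0.40 (SE 0.11, adjusted p = 0.0249), and T2D control pool 4 was its lowest pool. The call was lost without T2D control pool 4 (-0.28, adjusted p = 0.058) or pool 6 (0.0664), without healthy pool 8 (0.0598), in a fit of the 2 groups alone (0.0667) and with array medians set equal (-0.28, adjusted p = 0.116). The row used for Cycs lies on another chromosome than the gene, and the row on the gene's own chromosome differed by -0.38 (adjusted p = 0.0221).

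In complex IV, cytochrome c oxidase, members both fell and rose. Cox7b had 7.70, 7.96 and 7.97 in T2D control pools against 8.86, 9.31 and 8.90 in healthy pools, and was 2.22-fold lower (-1.15, SE 0.137, adjusted p = 0.00071). Cox4i1, through which ATP regulates the enzyme, had 7.68, 7.76 and 7.77 in T2D control pools against 8.62, 8.81 and 8.45 in healthy pools, and was 1.85-fold lower (-0.89, SE 0.0896, adjusted p = 0.000346). Neither gene's groups overlapped. Cox7a2, the isoform found in liver, fell by 0.64 (SE 0.0969, adjusted p = 0.00205), Cox7a2l, a factor of supercomplex formation, by 0.44 (SE 0.0648, adjusted p = 0.00179) and Cox5b, which binds zinc, by 0.34 (SE 0.0835, adjusted p = 0.0153). Ndufa4, now counted as a complex IV subunit, differed by -0.20 (adjusted p = 0.0761), but passed after quantile normalization (-0.36, adjusted p = 0.0125). Cox6a1, the liver form of subunit VIa, had 9.34, 9.50 and 9.53 in T2D control pools against 9.13, 9.14 and 8.86 in healthy pools. It rose by 0.41 (SE 0.0912, adjusted p = 0.0102), although after quantile normalization its difference was -0.05 (adjusted p = 0.875). Cox8a rose by 0.34 (SE 0.0905, adjusted p = 0.0207), a call lost without T2D control pool 5 (adjusted p = 0.0767) or pool 6 (0.072) and in a fit of the 2 groups alone (0.0575).

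The 6 isoforms of other tissues (Cox4i2, Cox6a2, Cox7b2, Cox8b, Cox8c and Ndufa4l2) had pool signals between 1.70 and 4.26, on both sides of the background probe means of 2.82 to 3.52. None of them passed, their differences had a median of -0.15, and Cox7b2 had the same value of 1.80 in all T2D control and healthy pools. Cox4i2, the counterpart of Cox4i1 that lung expresses, differed by -0.17 (adjusted p = 0.115), and passed without healthy pool 9 (-0.25, adjusted p = 0.00625). Likewise, Cox6a2, the heart and muscle form of subunit VIa, differed by -0.17 (adjusted p = 0.133), and passed without healthy pool 8 (-0.24, adjusted p = 0.0354), and Ndufa4l2 by -0.14 (adjusted p = 0.136), which passed without healthy pool 7 (-0.20, adjusted p = 0.0348).

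In ATP synthase several stalk and membrane subunits were lower, whereas the subunits that bear the catalytic sites did not pass. Atp5po, the stalk subunit that ties the catalytic head to the membrane part and confers oligomycin sensitivity, had 6.63, 6.89 and 6.80 in T2D control pools against 8.01, 8.08 and 7.91 in healthy pools. Atp5mg, subunit g of the membrane part, had 5.21, 5.44 and 5.40 in T2D control pools against 6.48, 6.67 and 6.46 in healthy pools. Atp5f1e, the epsilon subunit of the central stalk, had 7.66, 7.81 and 7.82 in T2D control pools against 8.90, 9.05 and 8.60 in healthy pools. For these 3 genes every T2D control pool was below every healthy pool. Atp5po was 2.34-fold lower (-1.22, SE 0.0825, adjusted p = 6.59e-05), Atp5mg 2.27-fold (-1.18, SE 0.0897, adjusted p = 0.000101) and Atp5f1e 2.13-fold (-1.09, SE 0.12, adjusted p = 0.000497). Atp5mk, a small subunit involved in dimer formation, was 2.2-fold lower (-1.14, SE 0.154, adjusted p = 0.00123), again from a row on another chromosome than the gene, and the row on its own chromosome fell by 0.65, or 1.57-fold (SE 0.129, adjusted p = 0.00619). Atp5pb and Atp5pf of the peripheral stalk fell by 0.51 and 0.49, whereas Atp5pd, of the same stalk, differed by -0.01 (adjusted p = 0.912).

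The alpha and beta subunits form the catalytic head. Atp5f1a had 9.42, 9.50 and 9.50 in T2D control pools against 9.53, 9.42 and 9.49 in healthy pools, and Atp5f1b had 10.15, 10.16 and 10.27 in T2D control pools against 10.17, 10.15 and 10.09 in healthy pools. Both overlapped, with differences of -0.01 for Atp5f1a (confidence interval -0.13 to 0.11, adjusted p = 0.933) and 0.06 for Atp5f1b (-0.07 to 0.19, adjusted p = 0.437). Atp5f1b had an identical value, 10.1547, in T2D control pool 4 and healthy pool 8. After quantile normalization Atp5f1a had a difference of -0.48 (adjusted p = 0.0396). Atp5mc1, Atp5mc2 and Atp5mc3 encode the same mature protein of the rotating c-ring, and Atp5mc1 fell by 0.82 (SE 0.102, adjusted p = 0.000884), Atp5mc3 fell by 0.29 (SE 0.0798, adjusted p = 0.024) and Atp5mc2 differed by -0.21 (adjusted p = 0.114). Atp5if1, the inhibitor that blocks the enzyme when it would run backwards, differed by -0.11 (adjusted p = 0.297).

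**Figure D2:**
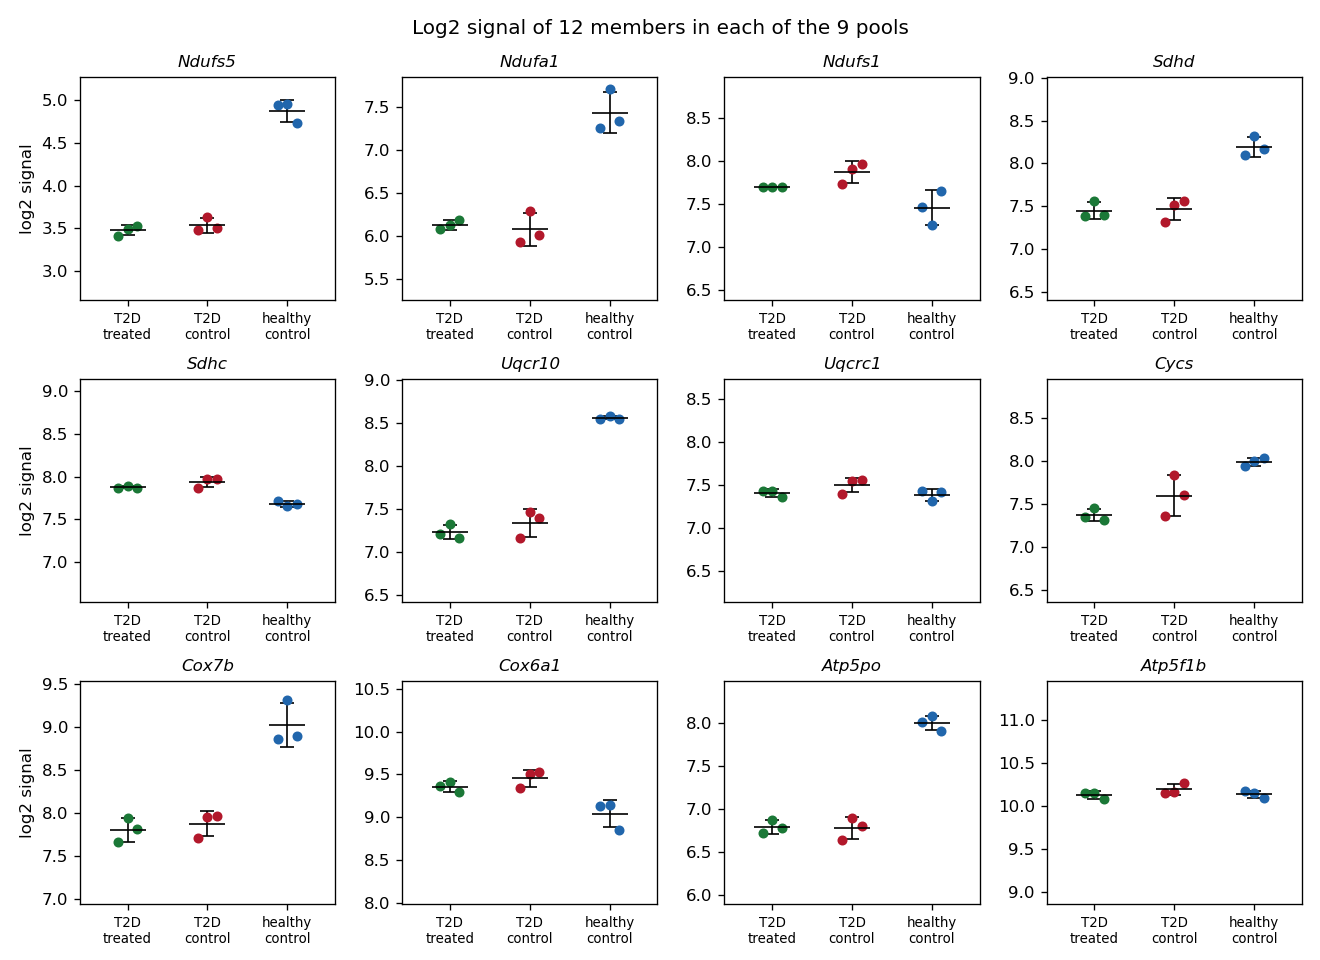
Log2 signal (y axis) of 12 members in each of the 9 pools, T2D treated, T2D control and healthy control in turn, with the mean and SD of each group (n = 3). Ndufs5, Ndufa1, Sdhd, Uqcr10, Cycs, Cox7b and Atp5po have both T2D groups below all healthy pools, Ndufs1, Sdhc and Cox6a1 have both above, and Uqcrc1 and Atp5f1b overlap.

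Most predicted copies of these genes were lower as well, and several had differences of a size like that of their parent gene. Of the 11 copies, 7 were lower and 1 was higher, with a median of -0.57. Uqcrbl1 fell by 0.85 (SE 0.0756, adjusted p = 0.000197), beside 0.78 for Uqcrb, and Ndufb4l3 by 0.74 and Ndufb4l1 by 0.64, beside 0.62 for Ndufb4. Atp5mc1l2 fell by 0.59 and Atp5mc1l1 by 0.53, beside 0.82 for Atp5mc1. Uqcr11l1 had mean signals of 5.63 in T2D control and 5.67 in healthy livers, beside 6.16 and 6.39 for Uqcr11. Near-identical sequences can share probe signal, so a copy's value and that of its parent gene may not be separate measurements. Atp5mgl4 was the 1 copy that rose, by 0.78 (SE 0.103, adjusted p = 0.00109), at mean signals of 3.05 in T2D control and 2.26 in healthy livers, beside background probe means of 2.82 and 3.52. Its parent gene, Atp5mg, fell.

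Promoters were read from the RefSeq promoter table for assembly GRCr8, in which 85 of 98 members had an entry. The 250 bases before each start were searched on both strands for the core motif of NRF1, a factor known to act on many respiratory chain genes, for CCGGAAG, the core of GABP and other ETS factors, and for the motif of YY1. Because a longer motif is stricter, NRF1 and YY1 were searched both with the whole core of 10 and 11 letters and with its first 9 letters, GCGCANGCG for NRF1 and AAGATGGCG for YY1, so that every match to the whole core is also a match to the 9. The 9 NRF1 letters stood in 17 of 85 member promoters (20.0%), against 7.19% of 18999 protein-coding promoters, with 9 of 51 among members lower in T2D control livers (17.6%) and 8 of the 34 other members (23.5%). The whole NRF1 core stood in 12 of 85 (14.1%), against 5.44% of all, with 4 of 51 among the lower members (7.84%) and 8 of 34 among the others (23.5%). The ETS letters stood in 20 of 85 (23.5%), against 9.52% of all, with 14 of 51 among the lower members (27.5%) and 6 of 34 among the others. The 9 YY1 letters stood in 1 of 85, against 0.784% of all, and the whole YY1 motif in 0, against 0.305% of all. The 7 windows below are those of the members with the whole NRF1 core that are named by the rule used for genes here, and are shown because they include both members that fell and members that did not pass. The capitals mark the core nearest the start, on either strand, with flanking bases in lower case. The first 3 belong to members that were lower in T2D control livers (Atp5po at chr11:44657503-44657572, minus strand; Ndufs5 at chr5:141264492-141264561, minus strand; Ndufaf5 at chr3:147961567-147961611, plus strand).
Atp5po: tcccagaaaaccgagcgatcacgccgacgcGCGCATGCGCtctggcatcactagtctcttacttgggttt
Ndufs5: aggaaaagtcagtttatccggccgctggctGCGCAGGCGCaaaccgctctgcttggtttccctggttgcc
Ndufaf5: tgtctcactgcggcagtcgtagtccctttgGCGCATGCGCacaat
The next 4 belong to members that did not pass (Sdha at chr1:30764477-30764546, plus strand; Uqcrc1 at chr8:118468129-118468198, plus strand; Ndufa5 at chr4:53971236-53971297, minus strand; Ndufaf4 at chr5:43401607-43401676, plus strand).
Sdha: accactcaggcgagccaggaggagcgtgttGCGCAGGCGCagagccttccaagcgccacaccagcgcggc
Uqcrc1: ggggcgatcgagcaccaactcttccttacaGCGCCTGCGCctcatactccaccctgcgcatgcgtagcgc
Ndufa5: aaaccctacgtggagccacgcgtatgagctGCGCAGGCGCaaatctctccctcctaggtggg
Ndufaf4: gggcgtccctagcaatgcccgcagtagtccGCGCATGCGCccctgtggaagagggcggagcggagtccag
Among the windows shown, the same 10 letters, GCGCATGCGC, stood before Atp5po, Ndufaf5 and Ndufaf4, 59, 15 and 158 bases before the start at the first letter. Atp5po was 2.34-fold lower, Ndufaf5 fell by 0.45 with a call close to the threshold, and Ndufaf4 did not differ beyond its spread. Whether the motif had a part in the differences was not tested. Ndufs5, Sdha and Ndufa5 likewise all had GCGCAGGCGC, 129, 46 and 32 bases before the start at the first letter. The differences of Ndufs5 and Sdha were -1.33 and 0.17, and Ndufa5 did not pass. The other 5 members with the whole core were Ndufs6, which was lower, and Atp5mc2, Ndufa11, Ndufa12 and Ndufv3, which did not pass. A match describes the letters in the window and does not show that a factor binds there.

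Across protein-coding genes the difference between T2D control and healthy livers went with genomic span, and the members are short. Among members with a mean signal of at least 5 the median span was 6.93 kb, against 23.3 kb for 8013 other protein-coding genes. The median difference of the other genes was -0.26 for spans up to 2 kb, -0.21 for 2 to 5 kb, -0.13 for 5 to 10 kb, -0.05 for 10 to 20 kb, 0.08 for 20 to 50 kb and 0.35 above 50 kb. The members in the same classes had medians of -0.53 (7 members), -0.40 (21), -0.56 (28), -0.42 (13), -0.11 (9) and -0.04 (1 member). The member medians thus lay below those of other genes in each class, with 1 member in the longest. Across genes, which are not independent replicates, Spearman's rho of the difference with span was 0.40 for the other genes and 0.18 for 79 members. The part of span in the result was not tested.

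**Figure D3:**
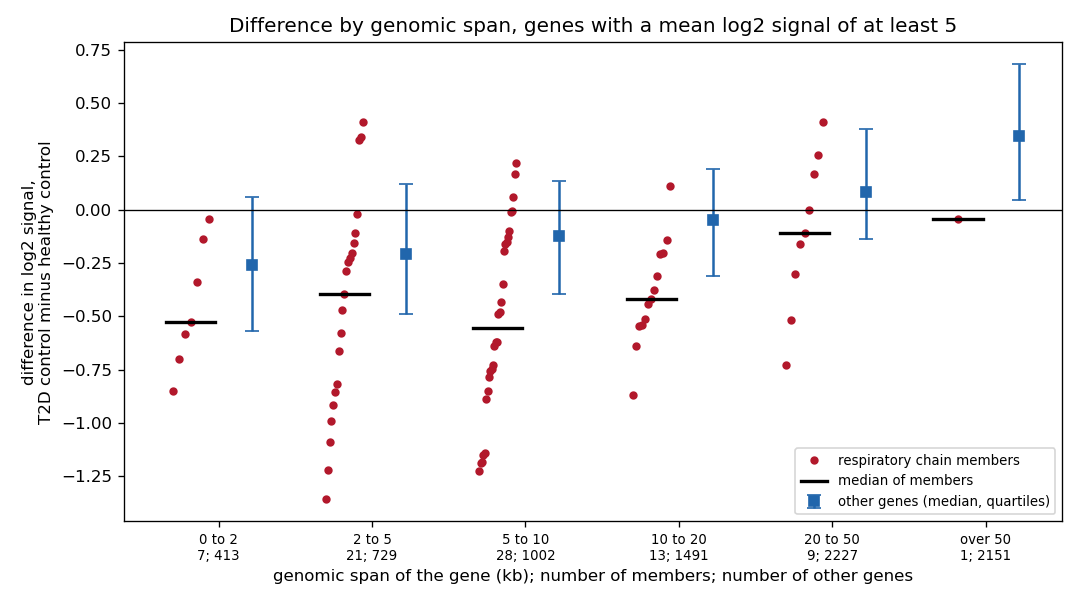
Difference in log2 signal, T2D control minus healthy control (y axis), by class of genomic span in kb (x axis), for clusters with a mean signal of at least 5. Red dots are members and black lines their medians, and blue marks are the median and quartiles of the other protein-coding genes, which run from -0.26 in the shortest class to 0.35 in the longest.

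Genes that build or serve the chain were counted from lists of textbook members, to be read beside the 22.6% lower and 12.4% higher of all clusters, and the 24.2% and 31.7% of brighter protein-coding clusters. Of the complex I assembly factors outside the Nduf symbols 6 of 10 were lower and 0 higher, of those for complex II 3 of 4 and 0, for complex III 4 of 6 and 0, for complex IV 10 and 3 of 22, and for complex V 2 of 4 and 0. Timmdc1, which assembles the membrane arm of complex I, fell by 0.74 (SE 0.0921, adjusted p = 0.000877), and Pet100, a complex IV factor, by 0.96. Coa5 and Cox15, which makes the heme A of complex IV, rose by 0.68 and 0.59. Of the other enzymes that deliver electrons to ubiquinone, 5 of 8 were lower and 1 was higher, among them both subunits of the electron transfer flavoprotein of fatty acid oxidation, Etfa (fell by 0.78) and Etfb (fell by 0.67). Of 11 genes for the upkeep and transcription of mitochondrial DNA 6 were lower and 0 higher, with Tfam, which packages that DNA and starts its transcription, fallen by 1.14 (SE 0.107, adjusted p = 0.000249). Of 12 supercomplex and cristae factors 7 were lower and 2 higher, and Micos13, a cristae junction protein, fell by 1.13. Of 10 genes for ATP export, phosphate import and proton leak, 4 were higher and 1 was lower. Ucp2, an uncoupling protein that is abundant in macrophages, rose by 1.89 (SE 0.0835, adjusted p = 1.75e-05), Vdac2, a pore of the outer membrane, rose by 0.58 and Vdac1 fell by 0.31.

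Markers of other liver cells also differed between these groups, where the same shares of all clusters apply. Of the hepatocyte markers 3 of 8 were higher and 2 lower with a median of -0.04, and their summed linear signal ran from 18182 to 21448 in T2D control and from 18844 to 19801 in healthy pools. The sum of 8 macrophage markers, 5 of them higher, ran from 2047 to 2547 in T2D control and from 1354 to 1596 in healthy pools. The sum of 6 sinusoidal endothelium markers, all 6 higher, ran from 1221 to 1353 in T2D control and from 657 to 860 in healthy pools. For 6 stellate cell markers, 5 of them higher, it ran from 558 to 608 in T2D control and from 308 to 357 in healthy pools. These 3 sums did not overlap between the groups, and their part in the differences of the chain was not tested. Cholangiocyte markers (1 of 4), muscle markers (2 of 4) and brown adipocyte markers (1 of 2) had lower calls and 0 higher.

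The treatment was then set against T2D control livers, which shared diet, streptozotocin and lysis reagent. Of the 98 members 0 passed in limma, where 46 of all 68842 clusters did (0.0668%), 2 higher and 44 lower. At an unadjusted p under 0.05 there were 4 members, all lower, beside 5.13% of all clusters (3.21% lower). Of these 4, 3 were predicted copies, and 1 was among the 81 members without copies and isoforms of other tissues. Under each alternative, including each pool left out in turn, 0 members passed. The differences ran from -0.31 to 0.11 with a median of -0.06, against -0.00 over all clusters, and the confidence intervals of the members together spanned -0.62 to 0.44. The treated mean lay below the T2D control mean for 77 members, where 52.5% of all clusters did so. All 3 treated pools were below all 3 T2D control pools for 7 members and above them for 1, beside 8.99% and 5.27% of all clusters.

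**Figure D4:**
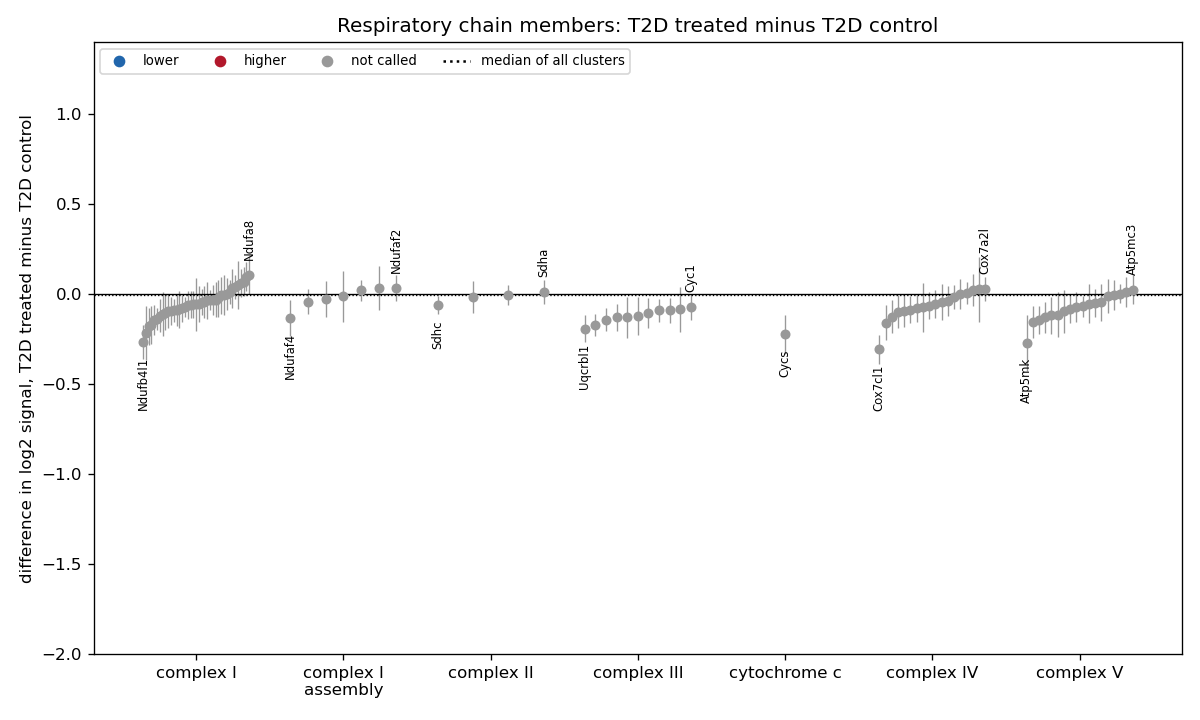
Difference in log2 signal, T2D treated minus T2D control (y axis, the same scale as for T2D control minus healthy control), of each of the 98 members by complex (x axis), with bars of 1 SE. All dots are grey because 0 members passed, and they lie between -0.31 and 0.11.

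Complex by complex, the medians of T2D treated minus T2D control were -0.05 for complex I, -0.01 for its assembly factors, -0.01 for complex II, -0.12 for complex III, -0.06 for complex IV and -0.07 for complex V. In complex III all 11 members had a treated mean below the T2D control mean, by 0.07 to 0.19, and none passed. Without T2D control pool 4, the lowest of its group for most members, the medians were -0.10 for complex I, -0.20 for complex III, -0.11 for complex IV and -0.11 for complex V. At the other end of the pools left out in turn, they were -0.03 for complex I (without T2D control pool 5), -0.06 for complex III (without T2D treated pool 3), -0.04 for complex IV (without T2D control pool 6) and -0.03 for complex V (without T2D treated pool 3). Cox7cl1, a predicted copy of Cox7c, had the smallest p, with 3.48, 3.47 and 3.57 in T2D treated pools against 3.87, 3.79 and 3.78 in T2D control pools. Its groups did not overlap, and its difference of -0.31 (SE 0.0808) had an unadjusted p of 0.00488 and an adjusted p of 0.446 in limma. Uqcrc2 had 7.95, 8.00 and 8.01 in T2D treated pools against 8.05, 8.20 and 8.23 in T2D control pools (difference -0.17, adjusted p = 0.772). Ndufb4l1 (-0.26, adjusted p = 0.778) and Uqcrbl1 (-0.19, adjusted p = 0.883) were the others under an unadjusted 0.05. Cycs had 7.36, 7.46 and 7.31 in T2D treated pools against 7.36, 7.83 and 7.60 in T2D control pools, which overlapped at pool 4 (difference -0.22, confidence interval -0.48 to 0.03).

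The members with the largest differences between T2D control and healthy livers did not pass for the treatment. Ndufa1 had 6.08, 6.12 and 6.19 in T2D treated pools against 5.93, 6.29 and 6.02 in T2D control pools, a difference of 0.05 (confidence interval -0.25 to 0.36). Ndufs5 had 3.41, 3.50 and 3.52 in T2D treated pools against 3.48, 3.64 and 3.50 in T2D control pools, a difference of -0.06 (confidence interval -0.24 to 0.12). Uqcr10 had 7.21, 7.33 and 7.17 in T2D treated pools against 7.16, 7.47 and 7.39 in T2D control pools, a difference of -0.10 (-0.30 to 0.09). Atp5po had 6.72, 6.87 and 6.77 in T2D treated pools against 6.63, 6.89 and 6.80 in T2D control pools, a difference of 0.01 (-0.17 to 0.20). The pools of each of these genes overlapped. Cox7b, with 7.66, 7.94 and 7.81 in T2D treated pools against 7.70, 7.96 and 7.97 in T2D control pools, differed by -0.07 (-0.39 to 0.24). Atp5mk differed by -0.27 (-0.62 to 0.08), an interval that reached lower than that of any other member, and by -0.01 (-0.31 to 0.28) in the row on the gene's own chromosome. Ndufa8 had the highest difference of all members, 0.11 (-0.13 to 0.35). The lists of assembly factors, electron donors, transporters, cristae factors, mitochondrial DNA genes and cell markers also had 0 calls in this comparison. Twnk, the helicase of mitochondrial DNA, had a difference of 0.42 (adjusted p = 0.189).

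**Figure D5:**
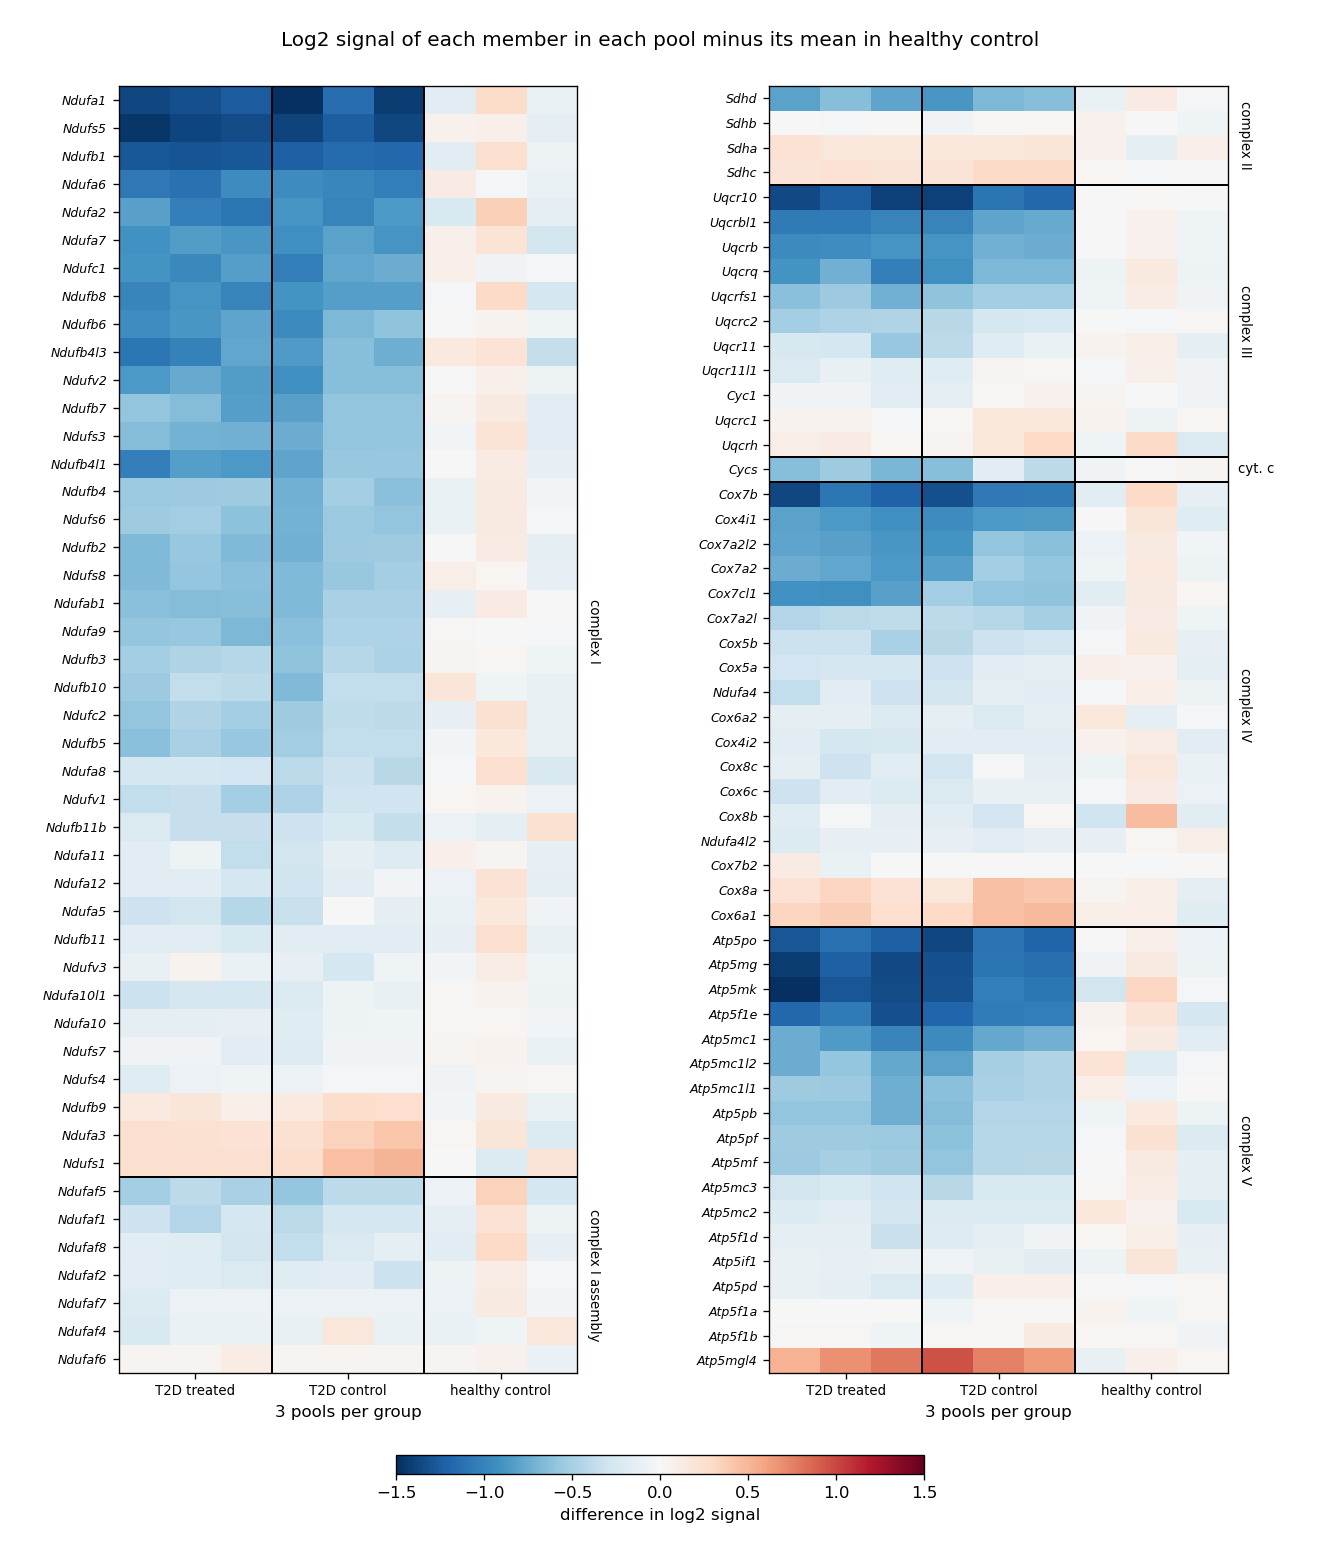
Log2 signal of the 98 members (rows, by complex) in the 9 pools (columns, T2D treated 1 to 3, T2D control 4 to 6, healthy control 7 to 9), each as the difference from the gene's healthy control mean on a colour scale from -1.5 to 1.5. Blue is below and red above that mean: Ndufa1, Ndufs5, Uqcr10, Cox7b and Atp5po are blue in all 6 T2D columns, Atp5mgl4, Cox6a1 and Sdhc are red, and Atp5f1a and Sdhb are pale.

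T2D treated livers were also set against healthy livers, a comparison that shares the healthy pools with the one above. Here 63 members passed in limma, 60 lower and 3 higher, beside 23.1% lower and 11.1% higher of all clusters (34.3% in either direction). The medians were -0.56 for complex I (28 of 39 lower), -0.18 for its assembly factors (2 of 7), 0.09 for complex II (1 of 4), -0.47 for complex III (7 of 11), -0.25 for complex IV (10 of 18) and -0.53 for complex V (11 of 18). Ndufs5 differed by -1.39 (adjusted p = 3.91e-05), Atp5mg by -1.34 (adjusted p = 6.87e-05), Uqcr10 by -1.33 (adjusted p = 5.79e-05) and Cox7b by -1.22 (adjusted p = 0.000537). Atp5mk was 2.66-fold lower (-1.41, adjusted p = 0.000474) in its row on another chromosome than the gene, and 1.59-fold lower (-0.67, adjusted p = 0.00576) in the row on the gene's own chromosome. Sdhd fell by 0.74 (adjusted p = 0.000754), and Cycs, with all T2D treated pools at or below 7.46 and all healthy pools at or above 7.94, fell by 0.62 (adjusted p = 0.00406). The 3 higher members were Sdhc (0.20, adjusted p = 0.0209), Cox6a1 (0.31, adjusted p = 0.0301) and Atp5mgl4 (0.67, adjusted p = 0.00219). The calls of Sdhc and Cox6a1 were lost after quantile normalization (Sdhc 0.09, adjusted p = 0.277; Cox6a1 0.0018, adjusted p = 0.996), with a trended and robust eBayes (0.0645 and 0.0658) and without any 1 of the T2D treated pools (0.0544 to 0.067 for Sdhc, 0.0573 to 0.0969 for Cox6a1), and that of Cox6a1 also in a fit of the 2 groups alone (0.0628). Ndufs1, at 7.70 in each T2D treated pool, differed from healthy livers by 0.24 (adjusted p = 0.101), Ndufa3 by 0.22 (adjusted p = 0.101) and Cox8a by 0.25 (adjusted p = 0.062). Ndufs1 passed without healthy pool 9 (0.34, adjusted p = 0.0199), and Cox8a with array medians set equal (0.37, adjusted p = 0.0147), among clusters of 1 symbol (0.0462) and without T2D control pool 4 (0.0442). Atp5f1a (-0.00, adjusted p = 0.977), Atp5f1b (-0.01, adjusted p = 0.9) and Sdhb (-0.01, adjusted p = 0.933) again did not pass. At the study's threshold 11 members were lower and 0 higher, beside 0.819% and 2.81% of all clusters.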

How the data were processed

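Pools of liver RNA from 9 arrays were analysed. The labels name the array kit RTA 1.0 and the methods name the array Clariom D Rat. The deposited values are log2 signals per transcript cluster, which the authors made by RMA in Transcriptome Analysis Console 4.0.2 (submitters' processing notes), and they were used with no further normalization. RMA includes quantile normalization, and the background correction and summary behind it can move dim clusters and give identical values. In all 3 pools of a group, 7174 of 68842 clusters had the same value. Identical values also occurred in bright clusters and between groups, as in Atp5f1b (10.1547 in pools 1, 2, 4 and 8). Array medians of the deposited values still differed, and quantile normalization of these values moved bright members too. For T2D control against healthy control, Atp5f1a moved to -0.48 and Cox6a1 to -0.05. The cause was not tested. 1738 control probe sets were left out, and 0 columns were left unused. The number of arrays limits the precision. Clusters were named from GEO's platform annotation, with gene type, span and promoters from RefSeq tables (GRCr8).

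All 9 arrays were fitted with limma 3.58.1 (R 4.3.3; lmFit and eBayes, 6 residual degrees of freedom), which was tested on simulated data, with Benjamini-Hochberg adjustment of the p-values across 68842 clusters. A call is an adjusted p under 0.05. Counts and plots were made with python 3.11.15, pandas 2.3.3 and matplotlib 3.10.9. Named in every case were the catalytic core and main subunits, and per complex and comparison up to 3 members, and per list up to 3 genes, with the smallest p; other members were picked after their values were seen. Members and lists were chosen with earlier results of these data known. Alternatives were a fit of the 2 groups alone, equal array medians, quantile normalization, a signal minimum of 5, clusters with 1 symbol, eBayes with trend and robust, averaging all rows of a member, the study's threshold and each pool left out. Added after seeing the data were the row on the gene's own chromosome, members without copies, and clusters without identical values.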

Additional observations from a re-analysis of the deposited data

How the results depend on the processing

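Of the 748 alternative values of named members for T2D control against healthy control, 675 stayed on their side of the threshold (15 of them changed sign while not passing), 65 no longer passed, 7 newly passed and 1 called value changed sign, Cox6a1 at -0.048 after quantile normalization. For T2D treated against T2D control all 728 stayed below the threshold (32 changed sign), and for T2D treated against healthy control 688 of 747 stayed on their side (17 changed sign while not passing). No member passed for T2D treated against T2D control in any alternative. Called values under 2-fold count as no longer passing at the study's threshold, although their adjusted p there is unchanged. An example is Uqcrb for T2D control against healthy control (-0.78, adjusted p = 0.000125 with limma). At the study's threshold 9 members were called for T2D control and 11 for T2D treated against healthy control. Leaving out 1 pool gave 53 to 67, 0 to 0 and 51 to 70 members called for T2D control against healthy control, T2D treated against T2D control and T2D treated against healthy control. Over all 68842 clusters the first comparison had 24083 calls, and 2848 at the study's threshold. Of the 16024 clusters with a signal of at least 5, 9484 were called, and of the 23446 with 1 symbol, 10563. With 1 pool left out, calls over all clusters ran from 15654 (without T2D control pool 5) to 31378 (without healthy pool 9). The second had 46, against 6 in a fit of the 2 groups, 30 with array medians set equal and 168 at the study's threshold. It had 1 call among the 16024 clusters with a signal of at least 5 and 3 among the 23446 with 1 symbol. Among the 61668 without identical values (added after seeing the data) it had 98. With 1 pool left out, its calls ran from 0 (without T2D treated pool 3) to 170 (without T2D control pool 4). The last had 23602, and 2496 at the study's threshold, with 8677 among the 16024 clusters and 10644 among the 23446. With 1 pool left out, its calls ran from 14782 (without T2D treated pool 3) to 31361 (without healthy pool 9). With array medians set equal, which shifts T2D control against healthy control by 0.12, the medians for T2D control against healthy control were -0.10 for the complex I assembly factors, 0.20 for complex II, -0.19 for complex III and -0.07 for complex IV, and after quantile normalization -0.11 (assembly), -0.088 (II), -0.52 (III), -0.36 (IV) and -0.63 (V). For T2D treated against healthy control they were -0.061 (assembly), 0.21 (II), -0.35 (III), -0.12 (IV) and -0.41 (V) with equal medians, and -0.023 (II), -0.63 (III), -0.39 (IV) and -0.67 (V) after quantile normalization; complex IV had -0.38 with a signal of at least 5. With a trended and robust eBayes, 1 member was higher and 59 were lower for T2D treated against healthy control. With 1 pool left out, the assembly factors' median for T2D control against healthy control ran from -0.26 to -0.10. The cause of these changes was not tested. No paired analysis was possible because the groups were made of different rats. Dim members near the background probes limit what can be read from their differences.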
